A study of Mus musculus with 69 samples.

Results

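The class IIa histone deacetylases Hdac4, Hdac5, Hdac7 and Hdac9 and the MEF2 transcription factors Mef2a, Mef2c and Mef2d were followed in cultured mouse vascular cells. They are 7 of the 56953 genes in the count tables, found by symbol, and all 7 passed the filter on low counts in WT VSMC, KO VSMC and EC. The group was selected on these same libraries because Hdac9 was higher with AII+NA than in Control, so the AII+NA against Control values below are a description and carry no test.

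Class IIa histone deacetylases have little catalytic activity of their own and act mainly as signal-dependent repressors that bind MEF2 factors on DNA. Kinases of the calcium/calmodulin, protein kinase D and salt-inducible families phosphorylate them, after which 14-3-3 proteins hold them in the cytoplasm and MEF2 is free to activate its targets. In the vessel wall the axis is known from smooth muscle growth and differentiation, from angiotensin II signalling, and, for Hdac7, from endothelial integrity. Only RNA was measured here, so phosphorylation and location of the proteins were not measured.

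Poly(A) RNA was sequenced from primary cells of male C57BL/6 mice in 69 libraries. WT VSMC (16 libraries, sets 1 to 4) were smooth muscle cells from the aorta of wildtype animals, KO VSMC (15 libraries, sets 5 to 8) were the same cells from EGFR-KOsmc animals, in which the floxed Egfr gene is cut by a Cre under the smooth muscle SM22 promoter, and EC (38 libraries, sets 9 to 18, labelled WT) were endothelial cells taken from the heart by depletion of CD45+ and capture of CD31+ cells. VSMC were used at up to passage 7 and synchronized in serum-free medium for 24 h, and all cells were then kept as Control or exposed for 24 h to HG+FFA (20 mM glucose and free fatty acids, labelled 100 µM), to AII+NA (30 nM angiotensin II and 300 nM catecholamine) or to ALL of these stressors. The sample labels call the catecholamine epinephrine, and NA stands for noradrenaline. The study's methods name sodium oleate and sodium palmitate, each at the labelled dose, so the total of fatty acids is not certain from the label. A set holds the libraries of cells from a single animal and passage that were treated together, and the set was a term in every comparison of conditions. Not analysed here were ALL in KO VSMC set 5, Control in EC set 10 and AII+NA in EC set 15. A single animal gave both EC sets 17 and 18, EC sets 9 and 10 came from the animals of WT VSMC sets 1 and 2, and EC sets 15 and 16 from the animals of KO VSMC sets 7 and 6.

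Library totals lay between 17166133 and 43240489 counts. Egfr, the targeted gene, averaged 246 to 430 FPM (counts relative to the TMM-scaled library size) over the WT VSMC sets, 36.5 FPM in KO VSMC set 5 and 0.96 to 1.84 FPM in KO VSMC sets 6 to 8. In EC it averaged 9.31 FPM in set 15 and 2.61 FPM in set 16, the sets that share animals with KO VSMC, and 12.6 to 154 FPM in the other sets. The summed RNA of 7 endothelial markers was 41.3 to 113 FPM in EC sets 9, 11 and 13, and 454 to 2910 FPM in the other EC sets. In VSMC it was 49.6 FPM in WT VSMC set 2 and 1.62 to 20 FPM in the other sets. Smooth muscle markers summed to 3230 FPM in EC set 11 and to 2910 FPM in EC set 13, above the 704 to 1220 FPM of the WT VSMC sets, while set 9 had 777 FPM. Fibroblast markers summed to 8840 FPM in EC set 11, 9930 FPM in EC set 13 and 3570 FPM in EC set 9. They summed to 4290 to 8880 FPM in the WT VSMC sets and 608 to 4290 FPM in the other EC sets. Endothelial marker RNA in EC sets 9, 11 and 13 was thus lower than in the other EC sets. It was higher than in VSMC, except that EC sets 9 and 13 lay below WT VSMC set 2. EC comparisons of the 7 genes were made with and without these 3 sets, a choice made after the data were seen. Fewer cells of a type and less RNA per cell cannot be told apart in bulk libraries.

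The 7 genes lie on separate chromosomes (GRCm39 coordinates of the GENCODE annotation). Hdac9 (ENSMUSG00000004698) covers chr12:34097579-34967094 on the minus strand, Hdac4 (ENSMUSG00000026313) chr1:91855937-92123421 minus, Hdac5 (ENSMUSG00000008855) chr11:102085245-102121072 minus and Hdac7 (ENSMUSG00000022475) chr15:97687372-97742383 minus. Mef2a (ENSMUSG00000030557) covers chr7:66880911-67022606 minus, Mef2c (ENSMUSG00000005583) chr13:83652064-83815555 plus and Mef2d (ENSMUSG00000001419) chr3:88049185-88079398 plus. Of the exon bases of Hdac5, 31.2% also lie in exons of other genes, mainly the antisense neighbour G6pc3, and of those of Hdac7 24.1% lie in Slc48a1 on the other strand. The strand setting of the counting is not given in the sources used here, so reads over these stretches cannot be assigned to 1 gene, and how many counts fall there was not measured. Mef2d shares 9.4% and Mef2a 7% of its exon bases in the same way. Hdac4, Hdac9 and Mef2c share no exon bases with another gene.

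MEF2 factors can bind promoters of genes of their own axis, so the promoters of the members were searched for known motifs on both strands. These were the MEF2 consensus YTAWWWWTAR, the CArG box of serum response factor CCWWWWWWGG and the cyclic AMP response element TGACGTCA. Y stands for C or T, W for A or T and R for A or G, and only exact matches were counted. RefSeq gave 13 promoters for the 7 members, each from 250 bases before to 50 after a transcription start, all placed on GRCm39 by exact match. The MEF2 consensus was found in 2 of them, the promoter of Hdac5 and that of Mef2a, and in 3.19% of all 32851 promoters of that length. In Hdac5 the match begins 20 bases before the start, at chr11:102121009-102121018 on the minus strand. In Mef2a it spans the start, at chr7:67022599-67022608 on the minus strand. Both are shown with 20 bases on each side because they are the only matches among the members, with the match in capitals:
Hdac5: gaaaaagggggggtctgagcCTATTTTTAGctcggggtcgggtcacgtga
Mef2a: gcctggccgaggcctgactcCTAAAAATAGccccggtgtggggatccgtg

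No CArG box or cyclic AMP response element was found in the 13 promoters, against 1.63% and 1.79% of all promoters. None of the motifs had an exact match in either promoter of Hdac9. Near matches were not searched for, so MEF2-like stretches that differ from the consensus are not covered. Because Hdac9 is the member whose RNA moved most, the 100 bases before each of its starts are shown, the first at chr12:34967095-34967194 and the second at chr12:34578889-34578988, both on the minus strand and with no letters marked:
Hdac9 first start: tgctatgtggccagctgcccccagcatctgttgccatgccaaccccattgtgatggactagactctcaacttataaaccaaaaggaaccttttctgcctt
Hdac9 second start: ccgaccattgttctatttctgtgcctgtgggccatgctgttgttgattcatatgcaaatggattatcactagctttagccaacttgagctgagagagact

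Without stressors, Hdac5 and Hdac7 were the most abundant members in VSMC, and Hdac9 was the least abundant in VSMC and in EC. Per length, in FPM divided by kilobases of exon (FPKM), WT VSMC in Control held 22.9 ± 5.48 of Hdac5, 20.4 of Hdac7 (range 15.9 to 24.1) and 14.7 ± 2.13 of Mef2d. The ranges of these neighbours overlapped. Mef2a followed at 5.61 ± 0.491 FPKM, Hdac4 at 2.12 ± 0.224 FPKM, Mef2c at 1.32 ± 0.414 FPKM and Hdac9 at 0.193 ± 0.0666 FPKM (mean ± SD, n = 4), and from Mef2d downward no range overlapped that of the next gene. KO VSMC gave the same order, with overlapping ranges for Hdac5 and Hdac7, Mef2d and Mef2a, and Hdac4 and Mef2c, with Hdac5 first and Hdac9 last at 0.215 ± 0.0828 FPKM (n = 4). In EC Hdac7 came first with 20.7 FPKM, then Hdac5 with 14.4 FPKM, Mef2d, and Mef2a with 11.9 FPKM, and the ranges of these neighbours overlapped. Hdac9 again came last, with 0.294 ± 0.27 FPKM (n = 9), and its range overlapped that of Mef2c. Without EC sets 9, 11 and 13 the order changed to Hdac7 with 21.3 FPKM, Mef2a with 14.2 ± 2.19 FPKM, Mef2d with 12.4 ± 2.74 FPKM and Hdac5 with 10.9 ± 1.48 FPKM (n = 6), again with overlapping neighbours, and Hdac9 stayed last with 0.36 ± 0.31 FPKM.

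**Figure D1:**
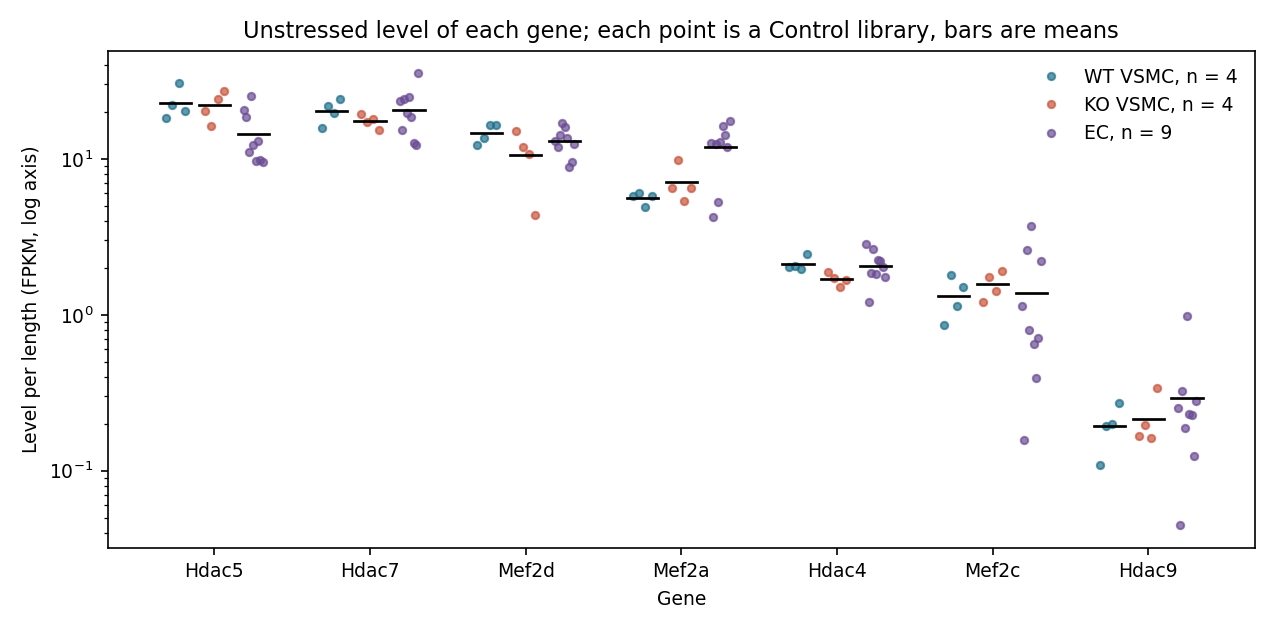
Level per exon length (FPKM, log axis) of the 7 genes in the Control libraries, with each point a library and each bar the mean of WT VSMC (n = 4), KO VSMC (n = 4) or EC (n = 9). Hdac9 sits lowest in each cell type, with means of 0.193, 0.215 and 0.294 FPKM, and Mef2a is higher in EC than in WT VSMC.

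KO VSMC were compared with WT VSMC in Control to ask whether loss of EGFR moves the resting level of the axis. None of the 7 members was called (edgeR, FDR under 0.05), 1 of them had an unadjusted p under 0.05, DESeq2 called 0, and 0.00622% of all genes were called. The member with the low p was Hdac4, with 33.6 to 42.0 FPM in WT VSMC and 25.9 to 32.2 FPM in KO VSMC. The ranges did not touch, but the log2 fold change was -0.33 (SE 0.14, FDR 0.408). Hdac9 differed by 0.15 on the log2 scale (95% interval -0.69 to 0.99), so that a difference of either sign within it was not excluded.

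EC were compared with WT VSMC in Control to place the axis by cell type. Here 12% of all genes and 1 of the 7 members were called, and cell type, organ and the batch of the labels (B1 for VSMC, B2 for EC) cannot be told apart. Mef2a was higher in EC by 1.10 on the log2 scale (SE 0.33, FDR 0.045), with 76.0 to 93.5 FPM in WT VSMC and 66.0, 196 and 270 FPM as lowest, median and highest of the EC libraries. The ranges overlapped through the libraries of EC sets 11 and 13 alone, whose means over conditions were 62.2 and 102 FPM against 165 to 272 FPM in the other EC sets. Leaving out any single set other than 11 and 13 ended this call, with FDR between 0.0557 and 0.129, whereas DESeq2 kept it at FDR 0.0134.

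Without EC sets 9, 11 and 13 the difference in Mef2a was 1.37 (SE 0.15, FDR 0.000247), and 28.5% of all genes were called. Hdac5, which stood at -0.65 (SE 0.28, FDR 0.128) with all sets, was then called lower in EC at -1.04 (SE 0.17, FDR 0.00148). Its set means were 157 to 200 FPM in EC sets 9, 11 and 13 and 75.5 to 142 FPM in the other EC sets. The part of these counts on exon bases shared with G6pc3 was not measured. Hdac7, known for its role in endothelium, was not called in either case, at 0.04 (95% interval -0.53 to 0.60) with all sets.

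Hdac9 and Mef2c varied most between EC sets. The mean of Hdac9 over the conditions of a set ranged from 0.419 FPM in set 11 to 15.8 FPM in set 14, with 2.24 to 4.79 FPM in the other 8 sets. That of Mef2c ranged from 3.15 FPM in set 11 to 53.5 FPM in set 14, and both extremes fell in the same sets as for Hdac9. Set 14 also had the highest sum of endothelial markers, 2910 FPM. Set 9, with 49.4 FPM of them, held 4.45 FPM of Hdac9, within the range of the sets rich in these markers. The part of cell content in these differences was not tested.

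**Figure D2:**
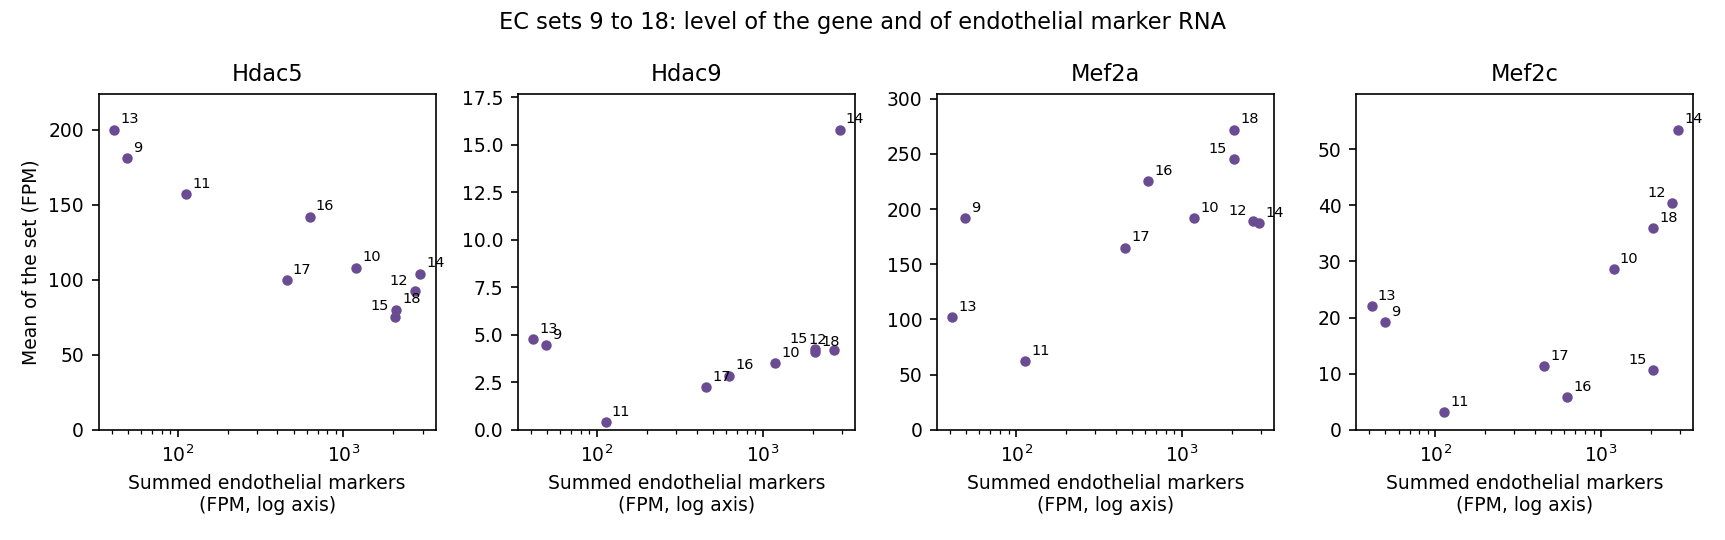
Mean FPM of Hdac5, Hdac9, Mef2a and Mef2c over the libraries of each EC set (numbered points, linear axis from 0) against the summed FPM of 7 endothelial markers (log axis). Sets 9, 11 and 13, at 41.3 to 113 FPM of markers, hold the most Hdac5, and set 14 holds the most Hdac9 and Mef2c.

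With AII+NA, the values that chose the group, Hdac9 RNA in WT VSMC was higher than in Control. In sets 1 to 4, Control had 1.71, 3.02, 3.13 and 4.27 FPM and AII+NA 5.43, 12.9, 5.28 and 15.1 FPM. All 4 sets were higher, by 1.69- to 4.27-fold, and the ranges did not overlap. These are low levels, from 57 to 118 counts per library in Control and from 142 to 399 counts with AII+NA. The log2 fold change was 1.62 (SE 0.23). Hdac9 made 1 of 7 members past the threshold in this contrast, where 0.0532% of all genes were, and nothing is read from that count because the contrast chose it.

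In KO VSMC the same contrast gave a smaller difference of 0.71 (SE 0.20) on the log2 scale. In sets 5 to 8, Hdac9 had 2.61, 3.08, 2.54 and 5.29 FPM in Control and 3.81, 3.89, 3.94 and 13.4 FPM with AII+NA. All 4 sets were higher, by 1.26- to 2.53-fold, and set 8 was highest in both conditions. None of the members and 0.0% of all genes passed the threshold (1711 genes at an unadjusted p under 0.05, and 372 genes but 0 members by DESeq2).

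In EC Hdac9 had 0.701, 3.61 and 15.3 FPM as lowest, median and highest value in Control and 0.173, 4.50 and 17.6 FPM with AII+NA. Of 8 sets with both libraries 5 were higher, and the log2 difference was 0.13 (SE 0.23), or 0.19 (SE 0.25) without EC sets 9, 11 and 13. No member and 0.0% of all genes passed the threshold (1143 genes at an unadjusted p under 0.05, and 75 genes but 0 members by DESeq2).

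**Figure D3:**
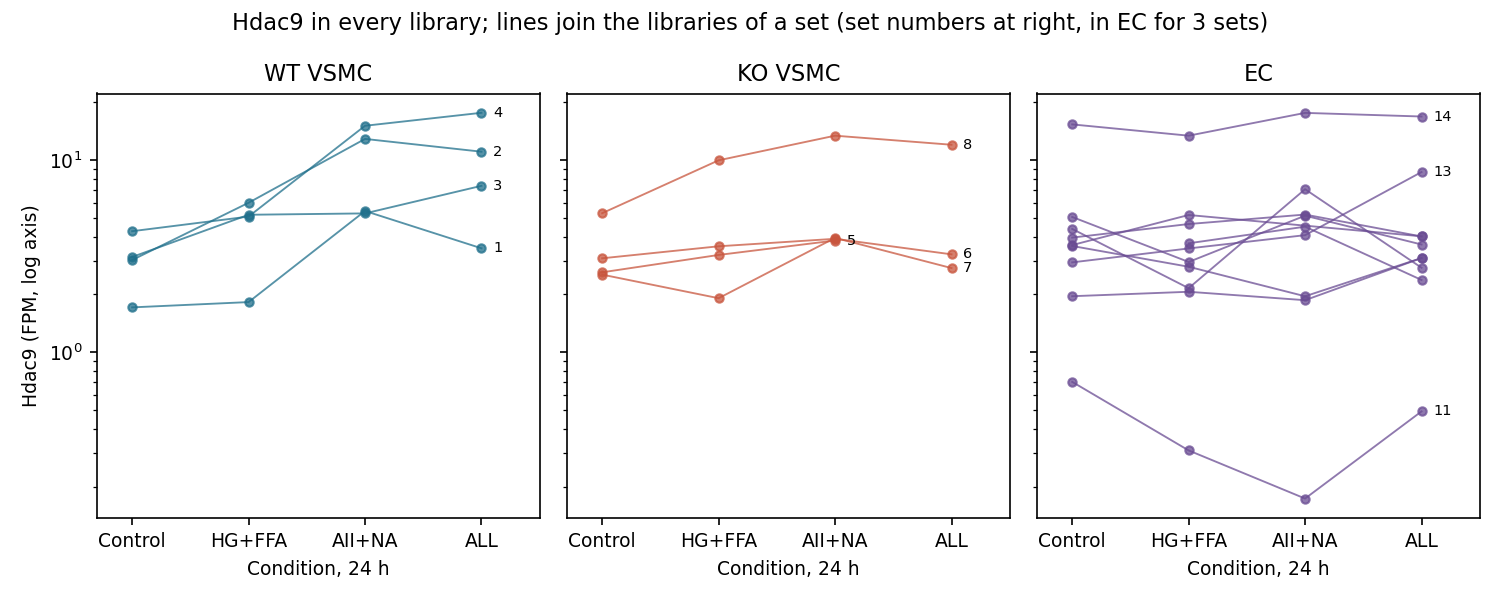
Hdac9 in FPM (log axis) in each library of WT VSMC, KO VSMC and EC by condition, with lines joining the libraries of a set and set numbers at the right, in EC for sets 11, 13 and 14. In WT VSMC each of the 4 sets is higher with AII+NA than in Control and with ALL than with HG+FFA, while KO VSMC set 8 and EC set 14 run above the other sets of their cells.

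The other members differed less with AII+NA. In WT VSMC Hdac5 was higher in 4 of 4 sets with a log2 fold change of 0.30 (SE 0.09), and Mef2c in 4 of 4 sets with 0.40 (SE 0.15). Mef2c was also higher in 4 of 4 KO VSMC sets, by 0.36 (SE 0.15), where Hdac5 stood at -0.01 (SE 0.11). Hdac4, Hdac7, Mef2a and Mef2d lay between -0.02 and 0.09 in WT VSMC. The median over the 7 members was 0.09 (WT VSMC), 0.21 (KO VSMC) and 0.01 (EC), beside medians of all genes within 0.02 of 0.

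HG+FFA alone was compared with Control to see the metabolic stressors without the hormones. None of the 7 members was called by edgeR or by DESeq2 in WT VSMC, KO VSMC or EC, where 0.538%, 0.439% and 3.53% of all genes were called by edgeR. At an unadjusted p under 0.05 there was 1 member in WT VSMC and 0 in each of the other cells. That member was Hdac9, with 1.82, 6.00, 5.19 and 5.08 FPM in sets 1 to 4 of HG+FFA, higher than Control in 4 of 4 sets by a log2 fold change of 0.56 (SE 0.24, 95% interval 0.05 to 1.06, FDR 0.386). In KO VSMC it differed by 0.27 (SE 0.20, FDR 0.571) and in EC by -0.18 (SE 0.22, FDR 0.743), or -0.22 (SE 0.24) without EC sets 9, 11 and 13.

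ALL stressors raised 2 members in WT VSMC, Hdac9 and Hdac5, against 7.45% of all genes called. Hdac9 had 3.48, 11.1, 7.35 and 17.6 FPM in sets 1 to 4, higher than Control in each set by 2.03- to 4.13-fold. The lowest ALL library lay below the highest Control library, so the ranges overlapped although every set rose. The log2 fold change was 1.58 (SE 0.23, 95% interval 1.08 to 2.07, FDR 0.00113). This comparison shares its Control libraries with the one that chose the group and is not independent of it. Without the set as a block the FDR was 0.48.

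Hdac5 had 172, 210, 290 and 191 FPM in Control and 204, 277, 320 and 301 FPM with ALL in sets 1 to 4. It was higher in 4 of 4 sets with a log2 fold change of 0.36 (SE 0.09, FDR 0.0263), less than the difference between sets of the same condition. Leaving out set 2 (0.34, FDR 0.0907) or set 4 (0.27, FDR 0.131), dropping the block (FDR 1.0) or using only the 2 groups (FDR 0.0548) ended the call. How many Hdac5 counts fall on the exon bases shared with G6pc3 was not measured.

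Mef2c, which smooth muscle and heart use in development, had 14.7, 30.8, 19.4 and 25.7 FPM in Control and 13.7, 45.9, 24.5 and 48.3 FPM with ALL in the WT VSMC sets. It was higher in 3 of 4 sets and did not pass the threshold at 0.45 (SE 0.15, FDR 0.0885). Without set 1, the only set that was lower, it did at 0.61 (SE 0.15, FDR 0.0341). Hdac4, Hdac7, Mef2a and Mef2d lay between 0.01 and 0.09 on the log2 scale, and without set 1 Hdac4 and Mef2d stood at -0.02 and -0.09.

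In KO VSMC and EC no member was called with ALL against Control, while 0.399% and 3.18% of all genes were, and DESeq2 called 0 members in both. At an unadjusted p under 0.05 there was 0 in KO VSMC and 1 in EC, Hdac7 with -0.21 (SE 0.10, FDR 0.284). Hdac9 in KO VSMC sets 6 to 8 had 3.23, 2.74 and 12 FPM, higher than Control by 1.05-, 1.08- and 2.27-fold. The log2 fold change was 0.45 (SE 0.22, FDR 0.494), with set 8 far above the other sets. Hdac5, called in WT VSMC, and Mef2c, not called there, stood at -0.21 (SE 0.12, FDR 0.558) and -0.23 (SE 0.16, FDR 0.631) in KO VSMC. In EC Hdac9 differed by 0.07 (SE 0.22, FDR 0.919), and by -0.12 (SE 0.24, FDR 0.876) without EC sets 9, 11 and 13.

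ALL against HG+FFA asks what the hormones add on top of the metabolic stressors, and it compares no library of the contrast that chose the group, although the fit over all conditions estimates the spread from those libraries too. In WT VSMC Hdac9 was higher in 4 of 4 sets, by 1.42- to 3.47-fold, with a log2 fold change of 1.02 (SE 0.23, 95% interval 0.54 to 1.5). The 2 conditions overlapped, since 3.48 FPM in set 1 under ALL lay below 3 of the HG+FFA libraries. Fitted on these 2 conditions alone the log2 fold change was 1.04 (FDR 0.134). Over all genes the fit on all conditions gave an FDR of 0.0989 in edgeR, which misses the threshold, and of 0.00378 in DESeq2, which passes it. The same holds for Hdac5, higher in 4 of 4 sets by 1.19- to 1.38-fold, at 0.39 (SE 0.09, FDR 0.108 in edgeR and 0.008 in DESeq2).

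By edgeR 0 of the 7 members were thus called in WT VSMC in that comparison, 3 had an unadjusted p under 0.05 (Hdac5, Hdac9 and Mef2c), and DESeq2 called 2, while 0.0414% of all genes were called by edgeR and 449 genes by DESeq2. Mef2c was higher in 4 of 4 sets by 0.51 (SE 0.15, FDR 0.203). The median of the 7 members was 0.16. Leaving out 1 set at a time, Hdac9 stayed between 0.74 and 1.23 with FDR from 0.0786 to 0.686.

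In KO VSMC and EC no member passed the threshold by either tool, as none did by edgeR in WT VSMC. None of the 7 members and 0.0% of all genes were called in KO VSMC (510 genes but 0 members at an unadjusted p under 0.05, 45 genes but 0 members by DESeq2), where Hdac9 stood at 0.18 (95% interval -0.29 to 0.65, FDR 0.999). None of the 7 members and 0.0% of all genes were called in EC either (881 genes but 0 members at an unadjusted p under 0.05, 106 genes but 0 members by DESeq2). There Hdac9 stood at 0.25 (95% interval -0.19 to 0.69, FDR 1.0), higher in 7 of 10 sets, and at 0.10 without EC sets 9, 11 and 13. Without these 3 sets no member was called in any of the 4 comparisons of EC conditions.

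**Figure D4:**
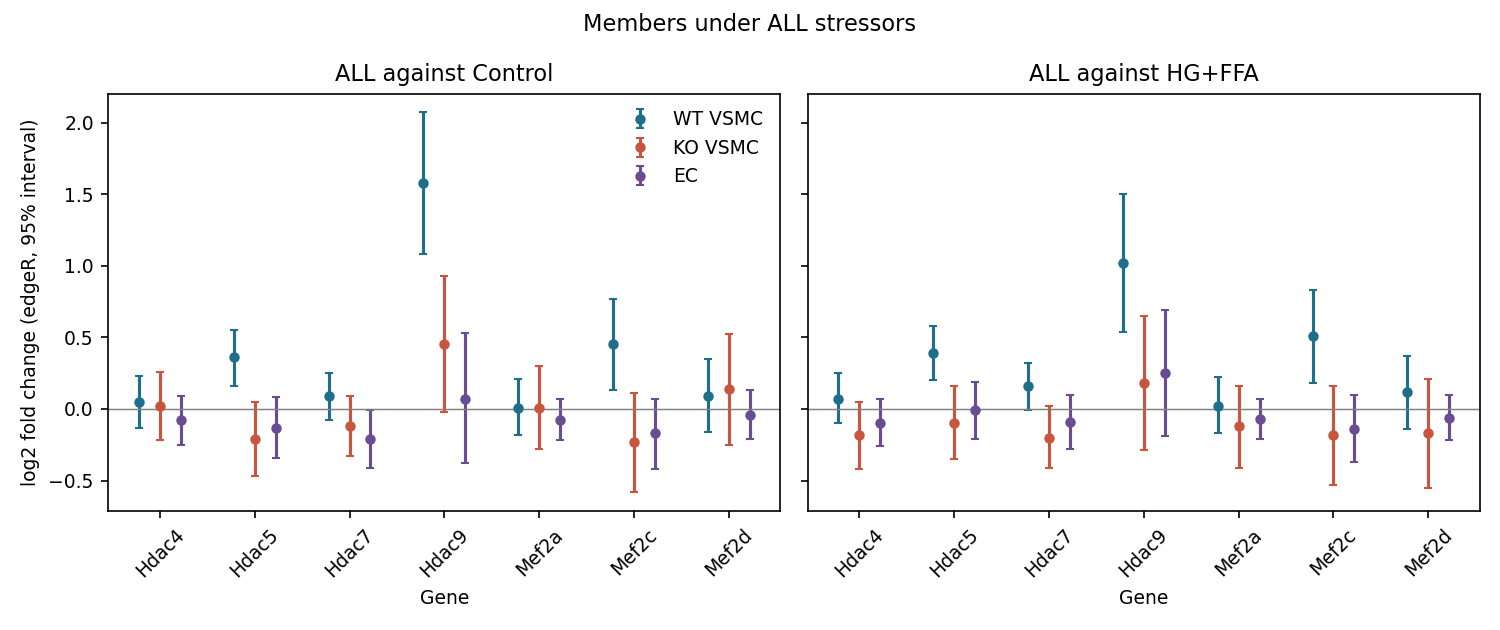
Log2 fold change of each member (edgeR, bars are 95% intervals) for ALL against Control on the left and ALL against HG+FFA on the right, in WT VSMC, KO VSMC and EC. Hdac9 in WT VSMC lies highest in both, at 1.58 and 1.02, and Hdac5 and Mef2c lie above 0 in WT VSMC and below 0 in KO VSMC.

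The difference between genotypes was tested by subtracting the effect in KO VSMC from that in WT VSMC. For ALL against HG+FFA, Hdac9 differed by 0.84 (SE 0.33, 95% interval 0.15 to 1.53), Mef2c by 0.69 (SE 0.24, 0.20 to 1.18), Hdac5 by 0.49 (SE 0.15, 0.17 to 0.80) and Hdac7 by 0.35 (SE 0.12, 0.10 to 0.60). These 4 of the 7 members had an unadjusted p under 0.05. None was called over all genes (edgeR FDR 0.809 to 0.88, and 0 by DESeq2), as 0.0% of genes were in edgeR, with 1008 genes at an unadjusted p under 0.05 and 314 called by DESeq2. For HG+FFA against Control 0 of the 7 members were called by edgeR or DESeq2 or had an unadjusted p under 0.05, with 0.0% of all genes called (564 at an unadjusted p under 0.05, 193 by DESeq2), and Hdac9 differed by 0.28 (95% interval -0.40 to 0.95). A genotype difference in Hdac9 is therefore not shown over all genes. Genotype and culture make-up cannot be told apart in these differences either.

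The median of smooth muscle marker RNA in WT VSMC was higher with AII+NA and with ALL than in Control. It was lower with HG+FFA, where the ranges overlapped, none of the markers was called and Hdac9 stood at 0.56 (SE 0.24, FDR 0.386) against Control. The sum of 5 such markers had a median of 684 FPM (325 to 1140) in Control, 577 FPM (314 to 891) with HG+FFA, 1490 FPM (793 to 2000) with AII+NA and 1130 FPM (1020 to 1440) with ALL. The median log2 fold change of the 5 was 0.96 for ALL against HG+FFA, where none was called by edgeR, and 0.84 for ALL against Control, where Tagln, a contractile protein gene, was called at 0.95 (SE 0.26, FDR 0.0361). In KO VSMC the medians were 0.14 and -0.01. Other markers moved in the same WT VSMC comparisons. Tnnt2, a cardiomyocyte marker and the only one of 4 tested, was called higher with ALL against Control at 1.07 (SE 0.29, FDR 0.0372) and stood at 1.21 (SE 0.29, FDR 0.122) in ALL against HG+FFA. The 7 endothelial markers had a median of -0.61 with ALL against Control, where Cdh5 was called lower at -1.17 (SE 0.25, FDR 0.00994), and of -0.28 in ALL against HG+FFA. Their levels were low, with a median sum of 9.64 FPM (1.74 to 61.1) in Control and 10.3 FPM (1.22 to 28.8) with ALL. WT VSMC set 2 held most of this RNA, with a mean sum of 49.6 FPM. The part of any of these markers in the Hdac9 result was not tested.

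Of 22 kinases listed as acting on class IIa deacetylases, directly or through another kinase, 4 were called in WT VSMC with ALL against Control. None was called in ALL against HG+FFA, beside 7.45% and 0.0414% of all genes in these comparisons. Prkd1, protein kinase D, rose by 0.43 (SE 0.13, FDR 0.0488), Camk2a by 0.74 (SE 0.18, FDR 0.021) and Camk2g by 0.28 (SE 0.07, FDR 0.0233), whereas Camk2d, another gene of that calcium/calmodulin kinase family, fell by 0.27 (SE 0.08, FDR 0.0459). The median of the 22 was 0.06, and the other 18 did not pass the test. Camk2a was also the only kinase called in EC, at 0.89 (SE 0.19, FDR 0.00533) with HG+FFA and 1.02 (SE 0.19, FDR 0.00156) with ALL. None of the 22 was called in KO VSMC, where Camk2a stood at 0.61 (SE 0.21, FDR 0.295) with ALL.

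Of 7 other histone deacetylases, Hdac11 alone was called in a comparison of conditions. It fell in EC by 0.46 (SE 0.12, FDR 0.0314) with HG+FFA and by 0.52 (SE 0.13, FDR 0.0145) with ALL, and in WT VSMC it stood at -0.37 (SE 0.11, FDR 0.0522) with ALL. None of the 7 14-3-3 genes and none of the 8 corepressors and partners was called in a comparison of conditions by edgeR. Among 15 calcineurin and MEF2 activator genes, Rcan2, a calcineurin regulator, rose in WT VSMC with ALL by 1.33 (SE 0.27, FDR 0.00758). It was higher in 4 of 4 sets, and in ALL against HG+FFA it stood at 1.02 (SE 0.27, FDR 0.147), close to the size of Hdac9.

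Of 13 genes listed as MEF2 targets, 10 were tested in VSMC and 9 in EC. Those called fell. With ALL in WT VSMC 3 of 10 were called, and with HG+FFA 1 of 10, where 597 and 37 of all 16905 genes were called lower. In WT VSMC Klf2, a Krüppel-like transcription factor that restrains inflammation, fell with HG+FFA by 0.87 (SE 0.12, FDR 0.00268) and with ALL by 1.04 (SE 0.12, FDR 0.000234), and with ALL Klf4 fell by 0.58 (SE 0.10, FDR 0.0033) and Jun by 0.57 (SE 0.12, FDR 0.00818), each in 4 of 4 sets. Klf2 also fell in KO VSMC with ALL by 1.06 (SE 0.21, FDR 0.0424) and in EC with HG+FFA by 0.82 (SE 0.24, FDR 0.0465), and Jun in EC with HG+FFA by 0.42 (SE 0.11, FDR 0.0215). None of the 9 was called in EC with ALL, where Klf2 stood at -0.68 (SE 0.23, FDR 0.11). None was called in ALL against HG+FFA, where the median of the 10 was -0.06 in WT VSMC. Klf2, Klf4 and Jun also respond to serum and growth factors, and several other factors than MEF2 act on them. The neighbour of Hdac9 on its chromosome that was tested, Twist1, stood at -0.08 (SE 0.08, FDR 0.732) in WT VSMC in that comparison.

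The 5 genes whose RNA followed that of Hdac9 most closely over the 69 libraries, as Pearson's r of log2 FPM centred within each set, were Net1 (r = 0.758), Lgalsl (0.726), Itprid2 (0.709), Edn1 (0.708) and Dnajb4 (0.703), of 20344 genes. Libraries share sets, Control libraries and scaling, so these are a description. By Spearman's rank correlation Net1 stayed first, and it was the only one of them among the first 5. Edn1, which encodes the vasoconstrictor endothelin-1, had 11.8 FPM in WT VSMC Control and 42.2 FPM with ALL, and Net1 had 10.4 and 22.2 FPM (means, n = 4). Among the members Mef2c was most like Hdac9 (r = 0.54, place 67), followed by Mef2a (0.306), Hdac5 (0.143), Hdac4 (-0.006), Hdac7 (-0.057) and Mef2d (-0.085).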

How the data were processed

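Counts of 69 poly(A) RNA-Seq libraries were analysed. The authors aligned reads with HISAT2 2.1.0 to mm39 (GRCm39), assigned them with featureCounts and deposited raw counts per gene, with no normalization. Reads with several alignments were counted. The sums of counts per library were 23626664 to 37801299 in WT VSMC, 23238979 to 35120866 in KO VSMC and 17166133 to 43240489 in EC. Symbols came from GENCODE, which held 56310 of the 56953 identifiers, and 0.024% of the counts lay on the others. The tables hold single genes only.

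For each cell type, edgeR 4.0.16 in R 4.3.3 (TMM, filterByExpr, quasi-likelihood test) was fitted over the 4 conditions with the set number as a block. A joint fit of WT VSMC and KO VSMC, with sets nested in genotype, gave genotype differences, and unstressed cells were compared without a block. FDR is Benjamini-Hochberg over all genes tested (WT VSMC 16905, KO VSMC 17538, EC 17148), and a gene was called under 0.05. DESeq2 1.42.0 with the same model was the second tool. FPM used one TMM scaling over all libraries, and FPKM divided FPM by exon length. Figures were drawn with matplotlib 3.10.9.

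The set numbers in the titles pair libraries of an animal and passage. Libraries of a set deviated together, with a mean r of 0.596 (WT VSMC), 0.585 (KO VSMC) and 0.646 (EC), against -0.194, -0.193 and -0.069 between sets. No libraries were duplicates, with at least 41.6 chi-square per gene between libraries of a group. In simulated counts for ALL against HG+FFA, 70.5% of 200 genes changed by 0.75 (log2) were called for WT VSMC, 49.5% for KO VSMC and 66.5% for EC. Of the genes called, 7.84%, 6.6% and 4.32% had not been changed. The 200 were drawn from all genes tested, whatever their level, so the share for genes as low as Hdac9 was not measured.

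Members, lists and tests were chosen with earlier results of these data known. Named genes were all members, the 5 genes most like Hdac9 and, of each list, up to 4 genes called in HG+FFA against Control or in ALL against HG+FFA. List genes called in ALL against Control were named after their values were seen. Promoters are from RefSeq.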

Additional observations from a re-analysis of the deposited data

Results flagged for a closer look

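Of 77 groups of 4 or more libraries, 9 had a library far from the rest by Dixon's test, which flags about 1 in 20 groups by chance, and the flags share libraries. Hdac9 in EC set 14 was flagged in every condition, with 15.3 FPM in Control (others 0.701 to 5.06), 13.4 FPM with HG+FFA (0.308 to 5.18), 17.6 FPM with AII+NA (0.173 to 7.05) and 16.9 FPM with ALL (0.492 to 8.67). KO VSMC set 8 had 13.4 FPM of Hdac9 with AII+NA (3.81 to 3.94) and 41.3 FPM of Hdac4 with HG+FFA (30.6 to 31.6). Mef2a had 109 FPM in WT VSMC set 2 with HG+FFA (76.9 to 81.2) and 97.0 FPM in WT VSMC set 1 with ALL (83.8 to 85.2). Hdac7 had 307 FPM in EC set 18 with HG+FFA (127 to 220).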

How the results depend on the processing

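The number of members called by edgeR, given as the value under the alternative after the value reported, was the most sensitive result. Counts for AII+NA against Control, which chose the group, are not given. With no count filter the number was 1 for HG+FFA against Control (0), 3 for ALL against Control (2) and 3 for ALL against HG+FFA (0) in WT VSMC. In that setting it was 1 for the genotype difference in ALL against HG+FFA (0) and 0 for EC against WT VSMC (1). With no replicate block it was 0 for ALL against Control (2) in WT VSMC, where only the 2 groups compared and the study's rule for changed genes each gave 1. By DESeq2 ALL against HG+FFA in WT VSMC gave 2 (0), and Hdac9 passed at 1.03 (FDR 0.00378), as it did with no count filter at 1.01 (FDR 3.98e-10), a fit that called 653 genes against 7. Leaving out 1 set at a time gave 1 to 3 for ALL against Control in WT VSMC, and 0 to 2 for EC against WT VSMC. Leaving out EC sets 9, 11 and 13, added after the data were seen, gave 2 there. Ranking by Spearman kept 1 of the 5 genes most like Hdac9. The cause of these shifts was not tested. No called value of a member changed sign under these alternatives, but values near 0 did: Hdac9 in EC with ALL against Control went from 0.07 to -0.12 without EC sets 9, 11 and 13, and without set 1 Mef2d in WT VSMC went from 0.09 to -0.09 and Hdac4 from 0.05 to -0.02. In the simulated counts a log2 change of 0.75 was missed in many KO VSMC genes, and the share for genes as low as Hdac9 was not measured.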
